A study of Homo sapiens with 4 samples.

Results

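The 50 genes described here belong to the Wnt pathway, in which secreted ligands reach Frizzled receptors and LRP co-receptors at the cell surface. They were taken as a fixed list of symbols, chosen with earlier results of these data known. All 50 were matched to 1 Ensembl identifier each among the 62893 genes of the tables. By role they comprise 14 feedback and other targets, 13 receptors, 8 core parts, 7 ligands, 2 genes of ligand export, 2 TCF genes outside the target list and 4 other inhibitors. Enough reads for a comparison were found for 40 of them, 5 had a few reads and 5 had none.

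Without a ligand, a scaffold of AXIN and APC holds beta-catenin for phosphorylation by GSK3, and the marked protein is destroyed. A ligand stops this through Dishevelled, and beta-catenin then joins TCF and LEF factors on DNA. Many of the genes it switches on, such as AXIN2, NKD1, NOTUM, RNF43 and ZNRF3, act back on the pathway as brakes, and in liver the pathway is known for setting the zones of the lobule. Hep-G2, a line derived from a human hepatoma, is known to carry a shortened beta-catenin gene copy whose product escapes this destruction.

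The tested cells were Hep-G2 with the shRNA TRCN0000246247 against FTO, an enzyme that takes methyl groups off N6-methyladenosine in RNA, and the control cells were Hep-G2 with the shRNA SHC002, named as scramble in the series' design text. All were at passage 21, and whether they were clones or pools was not stated in the sources used here. Total RNA was sequenced, with 2 count tables per group, of 20220271 and 20706611 gene-assigned reads for shFTO, and of 20047409 and 20474554 for scramble. Both tables of each group are titled as replicates (1 and 2), and no source used here says whether they came from separate cultures, so they are called run 1 and run 2. The runs of a group differed by no more than sampling noise (chi-square per degree of freedom 1.01 over 13674 genes, p = 0.142, for shFTO, and 1.02 over 13359 genes, p = 0.0648, for scramble), so they were pooled and counted as 1 sample. Each comparison thus rests on 1 counted sample per group, which leaves no spread between samples to set it against, and the 95% intervals, exact Clopper-Pearson unless stated, cover counting error only.

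FTO had 116 and 128 reads in the shFTO runs, against 594 and 550 in the scramble runs, 5.32-fold lower in shFTO (4.63 to 6.13). All 10 hepatocyte markers of a fixed list had reads, but their summed level was 18420 to 18490 CPM in shFTO runs, against 42310 to 42360 CPM in scramble runs. CPM is reads per 1000000 with library sizes scaled by edgeR's TMM method. Of lists for other cell types, fibroblast markers (4 of 7 with a read) summed to 6.59 to 7.11 CPM in shFTO runs and 23.1 to 23.8 in scramble runs, and endothelial ones (4 of 6) to 2.14 to 2.24 in shFTO and 1.06 to 1.35 in scramble. Leukocyte markers (4 of 6) summed to 3.1 to 3.55 in shFTO and 4.51 to 5.29 in scramble. Kidney or neural ones (2 with a read, of 4 matched and 6 listed) summed to 1.03 to 1.23 in shFTO and 1.85 to 2.02 in scramble. LHX1 and NEFL of that list were not matched to 1 identifier and could not be read. The list members COL3A1, LUM, DCN, PECAM1, KDR, PTPRC, CD3E, NEFM and GATA3 had no read. Within a list the other members differed in direction. PDGFRB, with 77 and 80 reads in shFTO, against 434 and 455 in scramble, makes up most of the fibroblast sum in scramble, while COL1A1 had 61 and 74 reads in shFTO, against 2 and 3 in scramble. The leukocyte gene ITGAM had 12 and 18 reads in shFTO, against 1 and 0 in scramble, and the endothelial gene TIE1 42 and 40 in shFTO, against 13 and 17 in scramble. What part these marker differences have in the Wnt values was not tested, and in bulk RNA a smaller share of cells and less RNA per cell cannot be told apart.

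In shFTO 14 of the 40 Wnt genes with enough reads were higher by 1.5-fold or more, which is 35%, and 2 were lower by as much, which is 5%. The same limits were passed by 11.4% (higher) and 13.4% (lower) of all 13767 genes with enough reads. As the Wnt genes were chosen with earlier results of these data known, their shares are a description. At 2-fold the Wnt counts were 6 higher and 1 lower, beside 5.18% and 6.19% of all genes. WNT6, WNT7B and FZD8 had under 10 reads in each scramble run and entered only through the shFTO runs, where they were high. The median log2 ratio was 0.26 for the 40 genes and 0.01 over all genes. EdgeR's quasi-likelihood test, which takes the runs as replicates and so compares these libraries and not the conditions, passed 24 of the 40 as higher and 10 as lower at a Benjamini-Hochberg adjusted p under 0.05, beside 33.2% and 33.4% of all genes. Ratios over all genes went up with transcript length, from a median log2 ratio of -0.12 in the shortest of 10 equal groups of genes (by their longest transcript) to 0.17 in the longest group. Scaling by plain library size instead of TMM adds 0.17 to every log2 ratio, and 6 of the 40 genes (WNT3, WNT11, LRP6, GSK3A, DVL1 and SP5) then change from just below to just above 0. With that scaling APC, ZNRF3 and TNFRSF19 also pass 1.5-fold as higher and TCF7L2 no longer passes it as lower, which makes 17 members higher, 8 of them feedback targets, and 1 lower. The ratios of all genes rise alike under that scaling, and their shares past the fold were not taken. These counts therefore cannot be set beside the 11.4% and 13.4%, which hold for TMM.

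**Figure D1:**
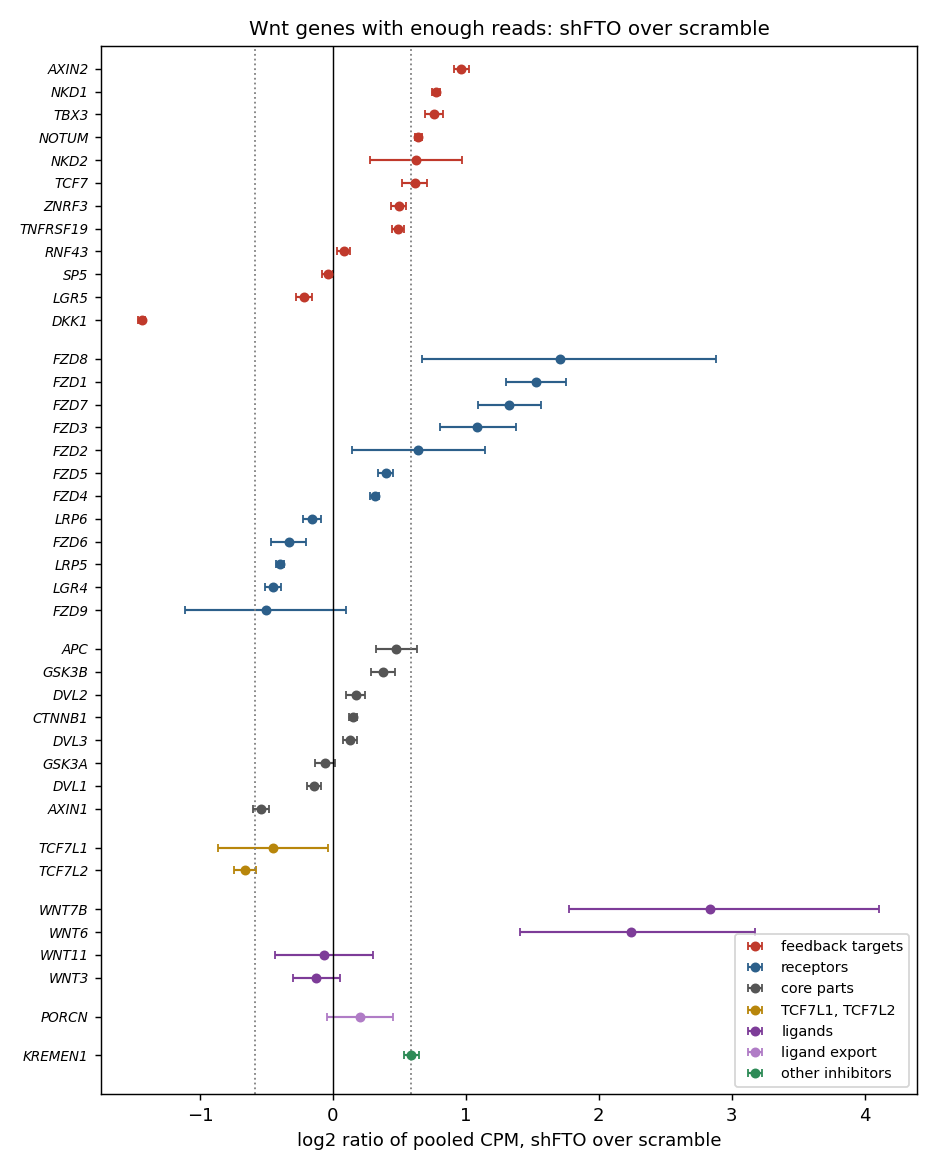
Log2 ratio of pooled CPM, shFTO over scramble, for the 40 Wnt genes with enough reads, by role, with 95% counting intervals as bars and dotted lines at 1.5-fold. Among the feedback targets AXIN2 stands highest at 0.97 and DKK1 lowest at -1.44, while the 8 core parts lie between -0.54 and 0.48.

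The feedback targets differed in direction, with a larger group above scramble, DKK1 far below it and others near it. Of 14, 12 had enough reads, and their median log2 ratio was 0.55, beside 0.01 over all genes. In shFTO 6 passed 1.5-fold as higher and DKK1 as lower, which is 50% and 8.33%, beside 11.4% and 13.4% of all genes. At 2-fold 0 were higher. The counting interval lay wholly above 1 for 9 of the 12 and below 1 for 2. Over all 13767 genes with enough reads it lay above 1 for 4761 and below 1 for 4751, so an interval clear of 1 is common here. AXIN2 (ENSG00000168646), a scaffold that rebuilds the destruction complex and a standard readout of the pathway, had 3663 and 3760 reads in the shFTO runs, against 1621 and 1729 in the scramble runs. Both shFTO values lay above both scramble values, which was not counted over all genes, and AXIN2 was 1.95-fold higher (1.88 to 2.04). NKD1, which binds Dishevelled and damps the signal, had 11993 and 12170 reads in shFTO, against 6135 and 6288 in scramble, 1.72-fold higher (1.68 to 1.75). Its paralog NKD2 was scarcer per kilobase of transcript, at 2.13 CPM in shFTO and 1.39 in scramble where NKD1 had 32.6 in shFTO and 19 in scramble. NKD2 had 106 and 93 reads in shFTO and 58 and 56 in scramble, and was 1.54-fold higher (1.22 to 1.96), but under 1.5-fold without shFTO run 1 or without scramble run 2.

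NOTUM (ENSG00000185269), a secreted enzyme that strips the lipid from Wnt ligands, had 14972 and 15396 reads in shFTO, against 8519 and 8628 in scramble, 1.56-fold higher (1.53 to 1.59). TBX3, a T-box transcription factor, had 2718 and 2713 reads in shFTO, against 1351 and 1473 in scramble, 1.7-fold higher (1.62 to 1.77). TCF7, which encodes a DNA-binding partner of beta-catenin and is itself a target, had 1280 and 1315 reads in shFTO and 725 and 769 in scramble, 1.53-fold higher (1.44 to 1.63). In none of these genes did the runs of shFTO and scramble overlap. The share of all genes without overlap was not counted, and edgeR's test passed 33.2% of all genes as higher and 33.4% as lower. TCF7 shares 210 exon bases with SKP1 on the opposite strand in GENCODE v29, and SKP1 had 3498 and 3644 reads in shFTO, against 3787 and 3727 in scramble. As the strand setting was not given, reads in that stretch cannot be assigned to 1 of the 2 genes.

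The membrane ubiquitin ligases that remove Frizzled receptors, ZNRF3 and RNF43, had unlike ratios. ZNRF3 had 2980 and 3030 reads in shFTO, against 1861 and 1901 in scramble, 1.41-fold higher (1.35 to 1.47). RNF43 had 3590 and 3532 reads in shFTO and 2942 and 2999 in scramble, a ratio of 1.06 (1.02 to 1.09). ZNRF3 is thus just under the 1.5-fold line, which it passes with plain library size at a log2 ratio of 0.66. The log2 ratio of RNF43 is 0.08, or -0.03 once the median of genes of like length is taken off, and RNF43 shares 143 exon bases with SUPT4H1 on the same strand. TNFRSF19, a receptor of the tumour necrosis factor family, had 4929 and 5108 reads in shFTO, against 3141 and 3169 in scramble, 1.4-fold higher (1.36 to 1.45), and it too passes 1.5-fold with plain library size. LGR5, an R-spondin receptor known as a marker of stem cells, had 2060 and 2128 reads in shFTO, against 2133 and 2157 in scramble, 1.16-fold lower (1.11 to 1.21). With plain library size its log2 ratio is -0.05. SP5, a zinc finger factor induced by beta-catenin, had 4959 and 5025 reads in shFTO, against 4505 and 4544 in scramble, a ratio of 0.973 whose interval of 0.945 to 1.001 spans 1.

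DKK1 (ENSG00000107984), a secreted inhibitor that binds the LRP5 and LRP6 co-receptors, went the other way from the rest of the targets past 1.5-fold. It had 9162 and 9426 reads in shFTO, against 22055 and 22375 in scramble, and was 2.71-fold lower (2.67 to 2.76). Per kilobase of its longest coding transcript DKK1 was the most abundant of the 40 genes in scramble, at 650 CPM per kilobase, and second in shFTO, at 240, where NOTUM came first at 301, against 193 in scramble. With coding length in place of transcript length DKK1 came first in both groups and NOTUM second. AXIN2 ranked 8 of 40 per kilobase of transcript in shFTO and 15 in scramble, and SP5 ranked 3 in both. The exons of DKK1 share 212 bases with PRKG1-AS1 on the opposite strand, which had 35 and 40 reads in shFTO and 52 and 42 in scramble, few beside its own. The other 2 targets were near silent. LEF1 had 5 and 9 reads in shFTO, against 1 and 2 in scramble, and DKK4 had 1 and 0 in shFTO, against 6 and 0 in scramble.

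**Figure D2:**
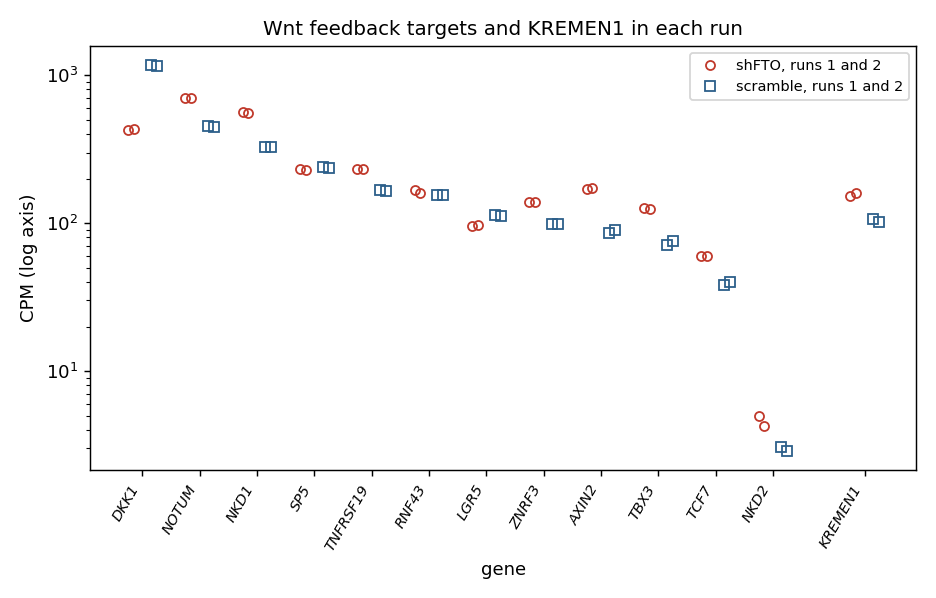
CPM of the 12 feedback targets with enough reads and of KREMEN1 in each run, on a log axis, with shFTO runs as circles left of scramble runs as squares. The runs of a group nearly coincide, DKK1 is at 429 CPM in shFTO and 1163 CPM in scramble with its runs pooled, and NKD2 is the scarcest gene shown.

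The letters CTTTGAT and CTTTGTT, the sequences that TCF and LEF factors are best known to bind, were searched on both strands in RefSeq promoter windows of GRCh38.p14, each from 250 bases before to 50 after a gene's start. The 2 words share their first 5 letters and cannot both match at the same place. Of the 35116 windows 7.61% hold at least 1 of them (2.62% hold CTTTGAT and 5.2% CTTTGTT). Windows were found for 32 of the 50 Wnt genes, and 5 of those genes have a match, namely SP5, TCF7, DKK1, TCF7L2 and WNT3. As some genes have several windows, this is 5 of 42 windows, or 11.9%. The 18 genes without a window, among them AXIN2, NKD1, NOTUM, ZNRF3, LGR5 and TBX3, could not be searched. Only 7 of the 14 feedback targets had a window. The windows of DKK1 (chr10:52314031-52314330, plus strand), SP5 (chr2:170715087-170715386, plus strand) and TCF7 (chr5:134123368-134123667, plus strand, 1 of its 2 windows) are shown because these targets carry matching letters while the first was lower in shFTO, the second nearly level and the third higher. TCF7 was added to the pair after its match was seen. Capitals mark the match, which starts 76, 109 and 50 bases before the start site in the order given, and in TCF7 it reads as the reverse complement AACAAAG.
DKK1: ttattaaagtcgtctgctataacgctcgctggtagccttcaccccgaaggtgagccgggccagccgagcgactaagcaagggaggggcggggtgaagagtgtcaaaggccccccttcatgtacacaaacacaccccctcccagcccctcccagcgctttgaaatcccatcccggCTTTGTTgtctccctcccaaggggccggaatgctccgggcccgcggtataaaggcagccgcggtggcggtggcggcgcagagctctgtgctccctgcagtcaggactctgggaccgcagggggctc
SP5: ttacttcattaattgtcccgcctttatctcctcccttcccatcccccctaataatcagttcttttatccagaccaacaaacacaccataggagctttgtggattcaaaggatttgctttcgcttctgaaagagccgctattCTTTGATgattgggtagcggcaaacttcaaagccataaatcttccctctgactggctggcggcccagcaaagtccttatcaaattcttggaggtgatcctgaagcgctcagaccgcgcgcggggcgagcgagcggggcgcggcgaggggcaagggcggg
TCF7: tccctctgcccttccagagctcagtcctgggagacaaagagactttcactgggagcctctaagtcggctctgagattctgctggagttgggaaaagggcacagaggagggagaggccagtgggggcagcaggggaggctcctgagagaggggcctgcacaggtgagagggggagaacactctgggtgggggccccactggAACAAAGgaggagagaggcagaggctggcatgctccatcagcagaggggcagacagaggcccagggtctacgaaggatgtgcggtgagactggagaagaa
A match describes these letters and says nothing of whether a factor is bound in Hep-G2.

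Of 12 receptors with enough reads 5 (41.7%) passed 1.5-fold, all of them Frizzled genes and all as higher, beside 11.4% of all genes. Of these 5, 4 were at least 2-fold higher, a limit passed by 5.18% of all genes. FZD8, 1 of the 4, was kept only through the shFTO runs, so these shares are a description. Per kilobase of transcript each of the 5 was scarcer than FZD4 and FZD5, the LRP genes and LGR4 in both groups, though FZD9, also scarce, did not have a ratio above 1. FZD1 (ENSG00000157240) had 348 and 341 reads in shFTO, against 103 and 108 in scramble, 2.88-fold higher (2.46 to 3.38). FZD7, often raised in liver cancer, had 270 and 305 reads in shFTO, against 99 and 103 in scramble, 2.51-fold higher (2.13 to 2.96). FZD3 had 161 and 193 reads in shFTO and 77 and 70 in scramble, 2.12-fold higher (1.75 to 2.59). For these 3 receptors each shFTO run held more reads than either scramble run, which was not counted over all genes. FZD8 had 14 and 23 reads in shFTO, against 6 and 4 in scramble, 3.26-fold higher with a wide interval of 1.59 to 7.36. FZD2 had 48 and 49 reads in shFTO, against 25 and 30 in scramble, 1.55-fold higher (1.11 to 2.21), but under 1.5-fold without scramble run 1.

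FZD4 and FZD5 were the most abundant Frizzled genes per kilobase in both groups. FZD4 had 9018 and 9165 reads in shFTO, against 6395 and 6490 in scramble, 1.24-fold higher (1.22 to 1.27). On the log2 scale this is 0.32, or 0.15 with the median of genes of like length taken off. It shares 1399 exon bases with PRSS23 on the opposite strand, a gene with 47 and 61 reads in shFTO and 12 and 11 in scramble. FZD5 had 3167 and 3180 reads in shFTO, against 2138 and 2109 in scramble, 1.32-fold higher (1.27 to 1.37). Of the summed Frizzled level per kilobase of transcript, FZD4 made up 61.8% in shFTO and 62.8% in scramble, and FZD5 23.7% in shFTO and 22.8% in scramble. FZD1, FZD3, FZD7 and FZD8 together made up 7.1% in shFTO, against 3.45% in scramble, or 5.43% against 2.71% by coding length. FZD6 was 1.26-fold lower (1.15 to 1.38), FZD9, with 18 and 26 reads in shFTO, against 31 and 24 in scramble, had a ratio of 0.705 whose interval of 0.463 to 1.07 spans 1 and which passes 1.5-fold without shFTO run 2 or scramble run 2, and FZD10 had no read.

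The co-receptors were not higher. LRP5, which pairs with Frizzleds to bind Wnt, had 8369 and 8710 reads in shFTO, against 9886 and 9958 in scramble, 1.32-fold lower (1.29 to 1.35). LRP6, its close relative, had 1853 and 1834 reads in shFTO and 1778 and 1853 in scramble, 1.12-fold lower (1.07 to 1.17). On the log2 scale this is -0.16, or 0.01 with plain library size. LGR4, the broadly expressed R-spondin receptor, was 1.36-fold lower (1.31 to 1.42). KREMEN1, a surface receptor through which DKK1 acts on LRP6, had 3261 and 3527 reads in shFTO, against 2005 and 1972 in scramble, 1.51-fold higher (1.45 to 1.56). KREMEN1 lies on the line of 1.5-fold and falls under it without shFTO run 2 or without scramble run 2.

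**Figure D3:**
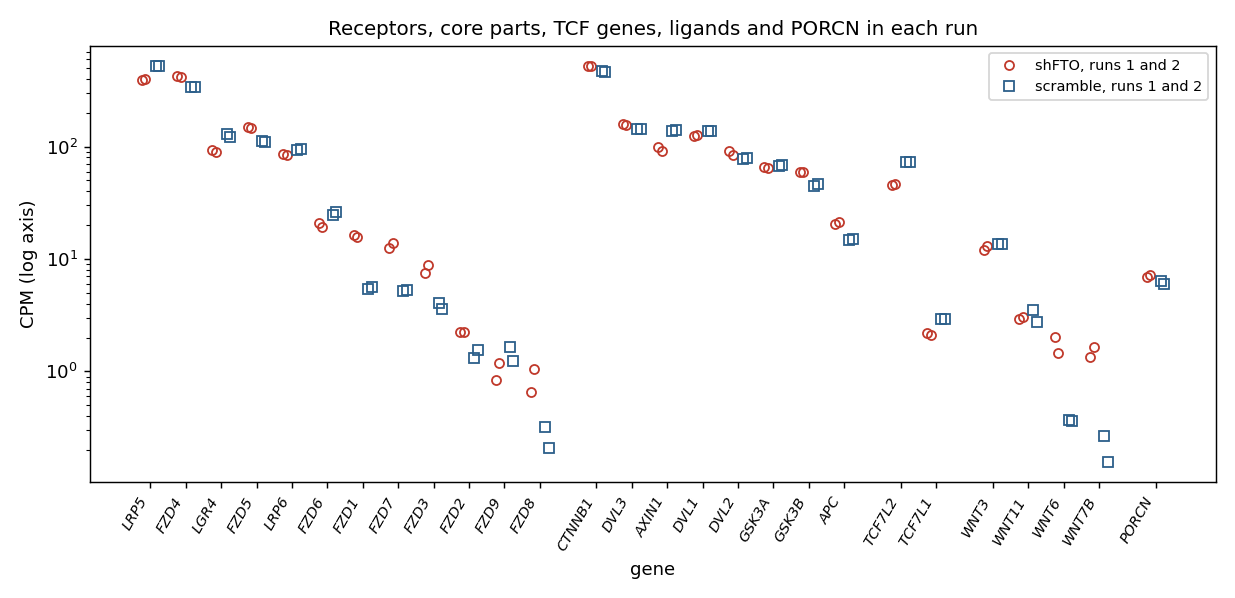
CPM in each run, on a log axis, for receptors, core parts, TCF genes, ligands and PORCN, ordered by scramble level within a role, with shFTO runs as circles left of scramble runs as squares. The widest gaps lie among the scarce genes, such as FZD1 at 15.9 CPM in shFTO and 5.52 CPM in scramble, while CTNNB1 is at 521 CPM in shFTO and 469 CPM in scramble.

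No core part was 1.5-fold higher or lower with TMM scaling and all runs, while APC passes that line with plain library size. CTNNB1 (ENSG00000168036), the beta-catenin gene itself, had 11153 and 11424 reads in shFTO, against 8961 and 8967 in scramble, 1.11-fold higher (1.09 to 1.13). AXIN1, the constitutive scaffold of the destruction complex, had 2127 and 2020 reads in shFTO, against 2596 and 2727 in scramble, 1.46-fold lower (1.4 to 1.52), and past 1.5-fold without shFTO run 1. APC, the other scaffold, had 434 and 466 reads in shFTO and 281 and 290 in scramble, 1.39-fold higher (1.25 to 1.55). GSK3B was 1.3-fold higher (1.22 to 1.38), and its partner kinase GSK3A had a ratio of 0.959 (0.909 to 1.01). The 3 Dishevelled genes, which relay the signal from Frizzled, stayed within a ratio of 0.906 for DVL1, 1.09 for DVL3 and 1.13 for DVL2, with DVL1 turning to just above 1 under plain library size. The 8 core parts had a median log2 ratio of 0.14, and with the 12 receptors 0.16.

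**Figure D4:**
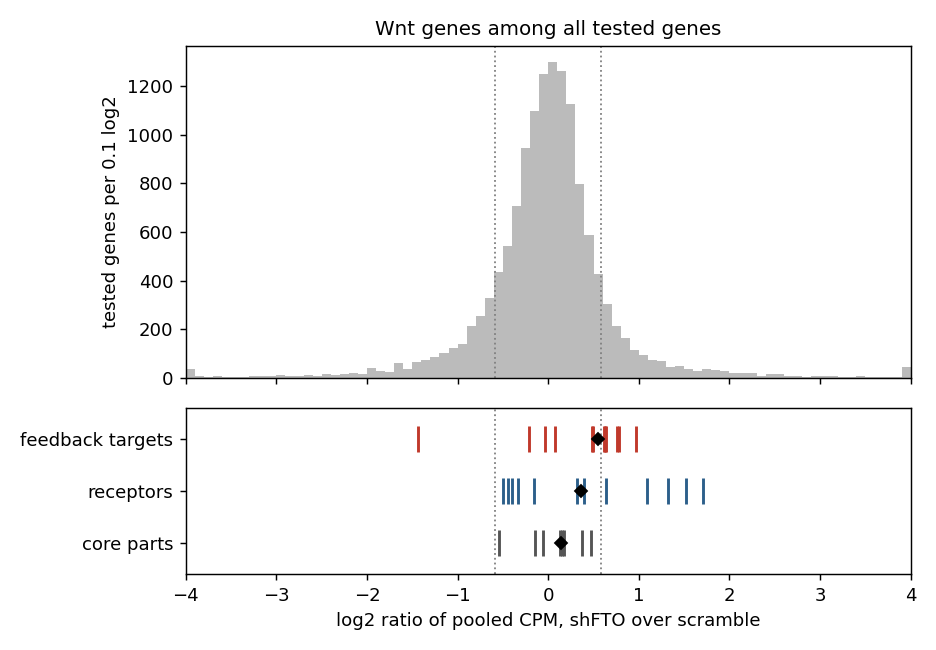
Number of tested genes per 0.1 step of the log2 ratio, shFTO over scramble (top, end bars hold all genes beyond 4), and the feedback targets, receptors and core parts as ticks with their medians as diamonds (bottom). The medians lie at 0.55, 0.36 and 0.14, and the receptors spread from -0.50 to 1.71.

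The TCF genes exchanged places in level per kilobase of transcript, with TCF7 at 18 CPM in shFTO and 11.8 in scramble, and TCF7L2 at 11.2 in shFTO and 17.6 in scramble. TCF7L2, the main TCF of intestine and liver, had 977 and 1024 reads in shFTO, against 1389 and 1397 in scramble, 1.58-fold lower (1.49 to 1.67) but under 1.5-fold lower with plain library size. TCF7L1, mostly a repressor, had 47 and 46 reads in shFTO and 55 and 57 in scramble, 1.37-fold lower (1.03 to 1.82). Inside each library TCF7 reads were 1.31 and 1.28 times those of TCF7L2 in the shFTO runs, against 0.522 and 0.55 times in the scramble runs, a 2.42-fold difference in the ratio (Woolf interval 2.22 to 2.63). Reads were not corrected for transcript length, which cancels in that difference.

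Ratios inside a library need no scaling between libraries, so they were taken for other pairs too, all picked after the values were seen. The intervals of these pairs are Woolf intervals as well. AXIN2 reads were 1.72 and 1.86 times those of AXIN1 in shFTO, against 0.624 and 0.634 times in scramble, 2.84-fold higher in shFTO (2.69 to 3.01). Per kilobase of transcript AXIN2 was at 40.2 CPM in shFTO and 20.6 in scramble, and AXIN1 at 26.3 in shFTO and 38.2 in scramble, so the order of the scaffolds differed between the groups. It did so by coding length too. AXIN2 shares 1316 exon bases with ENSG00000266076 on the same strand, which had 2 and 0 reads in shFTO and 0 and 0 in scramble. What this overlap does to the level of AXIN2 per kilobase was not tested. NOTUM reads were 1.63 times those of DKK1 in each shFTO run, against 0.386 times in each scramble run, 4.23-fold higher (4.13 to 4.34). Smaller differences were found for ZNRF3 over RNF43 at 1.33-fold (1.26 to 1.41), GSK3B over GSK3A at 1.35-fold (1.25 to 1.47), LRP6 over LRP5 at 1.18-fold (1.12 to 1.24) and LGR5 over LGR4 at 1.17-fold (1.11 to 1.25). FZD7 over FZD6 was 3.16-fold higher (2.63 to 3.81), and for NKD1 over NKD2, at 1.11-fold, the interval of 0.884 to 1.4 spans 1.

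**Figure D5:**
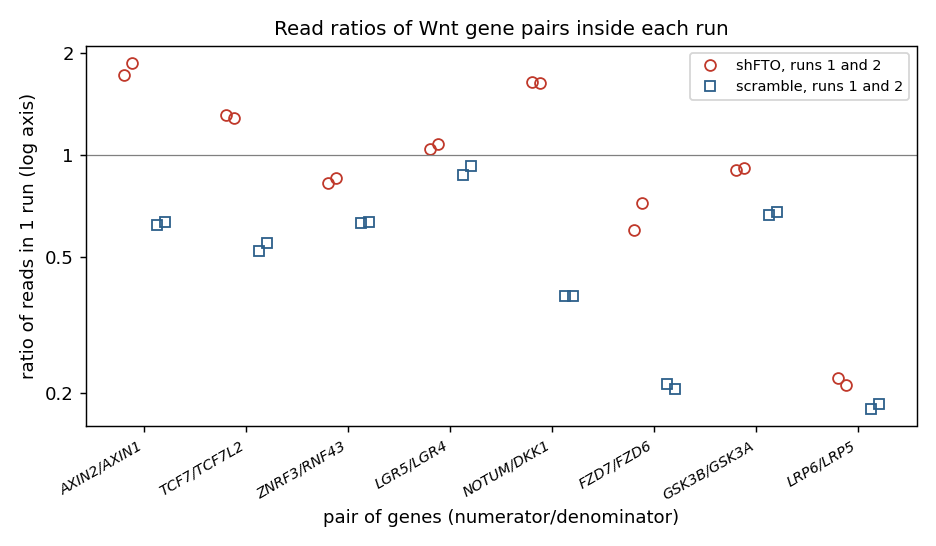
Ratio of reads of 2 Wnt genes inside each run, on a log axis, with shFTO runs as circles left of scramble runs as squares. For AXIN2 over AXIN1, TCF7 over TCF7L2, NOTUM over DKK1 and LGR5 over LGR4 the shFTO runs lie above 1 and the scramble runs below 1. Reads are not corrected for transcript length, so the line at 1 does not mark equal transcript levels.

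Ligand transcripts were scarce in both groups. WNT3 had 255 and 284 reads in shFTO, against 257 and 262 in scramble, and was the most abundant of the 7 ligands per kilobase, with a ratio of 0.916 (0.81 to 1.03) whose interval spans 1. WNT11, known mainly for signalling without beta-catenin, had 63 and 67 reads in shFTO and 67 and 53 in scramble, a ratio of 0.955 (0.739 to 1.23). WNT7B had 29 and 36 reads in shFTO, against 5 and 3 in scramble, 7.16-fold higher (3.43 to 17.3). WNT6 had 43 and 32 reads in shFTO, against 7 and 7 in scramble, 4.72-fold higher (2.65 to 9.05). Per kilobase of transcript WNT6 reached 1.02 CPM and WNT7B 0.383 CPM in shFTO, where WNT3 had 3.71. WNT10A had 3 and 3 reads in shFTO and 0 and 1 in scramble, WNT5B had 1 scramble read, and WNT5A had none. PORCN, the enzyme that attaches the lipid to Wnt ligands, had 149 and 159 reads in shFTO, against 120 and 116 in scramble, a ratio of 1.15 (0.968 to 1.37). WLS, the carrier that takes Wnt ligands to the surface, had no read, and neither had the secreted inhibitors WIF1 and SFRP1, while DKK3 had 6 and 7 reads in shFTO and 1 and 2 in scramble.

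Another 128 Wnt pathway genes outside the 50 were read from fixed lists, also chosen with earlier results known, and 82 had enough reads. In shFTO 17 of these passed 1.5-fold as higher and 8 as lower, 20.7% and 9.76%, beside the 11.4% and 13.4% of all genes, and their median log2 ratio was 0.19. Of the 17, PRICKLE2, WNT10B and CCND2 had under 10 reads in each scramble run and were kept only through the shFTO runs, and FRZB, 1 of the 8, only through the scramble runs, so these shares are a description. Of 20 genes for partners of beta-catenin in the nucleus, 4 passed 1.5-fold as higher and 2 as lower. These are 20% and 10%, again beside 11.4% and 13.4% of all genes. PYGO1, a coactivator, was 8.6-fold higher (5.13 to 15.4) on 81 and 75 reads in shFTO, against 10 and 6 in scramble. SOX4 was 2.92-fold higher (2.64 to 3.24), the coactivator BCL9L 1.85-fold higher (1.76 to 1.93) and the Mediator subunit MED12 1.54-fold higher (1.44 to 1.64). TLE4, a corepressor of TCF factors, was 9.76-fold lower (7.46 to 13), with 30 and 30 reads in shFTO, against 240 and 276 in scramble. CTNNBIP1, an inhibitor that keeps beta-catenin from TCF factors, was 2.31-fold lower (2.2 to 2.42), with 1136 and 1245 reads in shFTO, against 2412 and 2430 in scramble.

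Among other surface and cytoplasmic genes, DACT2, which binds Dishevelled, was 4.61-fold higher (3.42 to 6.33), the secreted decoy SFRP5 3.47-fold (2.37 to 5.22) and AMER1, an adaptor of APC, 1.54-fold higher (1.42 to 1.68). The kinase gene CSNK1E was 1.68-fold lower (1.61 to 1.75), and BTRC, the ubiquitin ligase part that recognises phosphorylated beta-catenin, 1.56-fold lower (1.43 to 1.71). FRZB, a secreted decoy named after its values were seen, had 1 and 3 reads in shFTO, against 27 and 18 in scramble. Of 17 other ligands and R-spondins only WNT10B had enough reads, 3.61-fold higher (1.78 to 8.09) on 21 and 20 reads in shFTO, against 8 and 2 in scramble. Of 10 planar polarity genes with enough reads, 3 passed 1.5-fold, all as higher, which is 30% beside the 11.4% of all genes but includes PRICKLE2, kept only through the shFTO runs. They were CELSR1 at 2.95-fold (2.4 to 3.65), VANGL2 at 3.39-fold (2.02 to 5.94) and PRICKLE2, with 30 and 36 reads in shFTO, against 0 and 1 in scramble, at a ratio of 58.2 and an interval of 10.1 to 2332.

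Targets outside the 50 differed in both directions. Among 13 general targets with enough reads, 5 passed 1.5-fold as higher and 1 as lower. These are 38.5% and 7.69%, beside 11.4% and 13.4% of all genes. CCND2, 1 of the 5, was kept only through the shFTO runs. The counting interval lay wholly above 1 for 7 of the 13 and below 1 for 6, beside 4761 and 4751 of all 13767 genes. Cyclin genes CCND1 and CCND2 were 2.79-fold (2.73 to 2.84) and 3.78-fold (2.09 to 7.32) higher, BAMBI, a decoy receptor of TGF-beta, 2.52-fold (2.35 to 2.71) and PLAUR 1.78-fold (1.36 to 2.35), whereas VEGFA was 2.38-fold lower (2.31 to 2.46). Of 16 listed genes that Wnt signalling is known to set in liver lobules, 9 had enough reads and 3 had none. Another 4, among them CYP2E1 and CYP1A2, had too few. Of the 9, 1 passed 1.5-fold as higher and 2 as lower, 11.1% and 22.2% beside 11.4% and 13.4% of all genes, with a median log2 ratio of -0.37. RHBG, an ammonium transporter, was 1.62-fold higher (1.49 to 1.77), OAT, an ornithine enzyme, 1.78-fold lower (1.68 to 1.89) and AHR 1.57-fold lower (1.44 to 1.71). The counting interval lay wholly below 1 for 6 of the 9 and above 1 for 1, beside 4751 and 4761 of all 13767 genes. GLUL, the glutamine synthetase gene of the central lobule, is named after its values were seen, with 7549 and 7818 reads in shFTO, against 9758 and 10009 in scramble, 1.46-fold lower (1.43 to 1.49). The hepatocyte markers, 8 of 10 at least 1.5-fold lower, went the same way as this list's median, and their part in it was not tested.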

How the data were processed

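Each of the 4 deposited tables holds unnormalized counts of reads by Ensembl gene. The tools listed are TopHat2 2.1.1 and HTSeq 0.6.0, with build hg19, per the submitters' processing notes. No source used here gives the annotation release or the strand setting. Members and lists were chosen with earlier results of these data known.

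Symbols came from a gene name table and lengths and exon overlaps from GENCODE v29 (GRCh38), so no hg19 coordinates are given. The runs of a group were pooled after a chi-square test over genes with at least 20 reads. Folds are ratios of pooled CPM with TMM-scaled library sizes (edgeR 4.0.16, R 4.3.3) over genes kept by filterByExpr. The Clopper-Pearson interval is of the split of reads between groups (scipy 1.17.1). Past the fold means at least 1.5-fold. EdgeR's quasi-likelihood test ran without a block, two-sided, over 13767 genes. Intervals and the test were checked on simulated data.

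The 12 targets with at least 20 reads, other members past 1.5-fold with at least 50 reads, CTNNB1, LRP5, LRP6 and the 2 most abundant Frizzleds are given with their reads in every table, and other members by values where there was room. From each other list up to 4 genes each way past 1.5-fold with at least 50 reads are named. Alternatives were other scalings, filters and thresholds, leaving out each run, removal of the median of the same length decile, DESeq2 1.42.0 and the replicate block. Coding lengths and ratios inside a library were added after the data were seen.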

Additional observations from a re-analysis of the deposited data

How the results depend on the processing

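Under other scalings, with each run left out and with length medians removed, 36 to 40 of the 40 genes with enough reads kept their side of 1.5-fold, and none passed it in the opposite direction. NKD2, FZD2 and KREMEN1 fell under 1.5-fold without 1 or another run, KREMEN1 also with DESeq2 size factors and after length medians were removed, and TCF7L2 with plain library size, where APC, ZNRF3 and TNFRSF19 passed it as higher, while AXIN1 or FZD9 passed it as lower without 1 run. With plain library size, the medians were 0.43 for all members, 0.72 for feedback targets and 0.33 for receptors with core parts, 1 member and 5 other pathway genes were past the fold as lower, and edgeR passed 6 members as lower. With a minimum of 1 read, 4 members, 2 feedback targets and 15 other pathway genes were lower and 30 other pathway genes higher. Shares of all genes were taken neither at that minimum nor with plain library size, so these counts have nothing to be set beside. At 2-fold, 6 members, 0 feedback targets and 11 other pathway genes were higher, and 1 member and 4 other pathway genes lower. Without 1 run, 0 to 1 of the receptors with core parts were lower. The replicate block left 24 members higher and 10 lower. Same-numbered runs did not deviate together (correlation 0.003). As the runs of a group differed by no more than sampling noise, this cannot show whether the numbers mark pairs. DESeq2 passed 20 as higher and 9 as lower, and the shares of all genes it passed were not taken. The causes were not tested. Depth limits the genes under about 20 reads, and the variation between cultures is unknown.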
